A study of Homo sapiens with 8 samples.

Results

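Heavy polysome RNA was compared with light-fraction RNA in acute myeloid leukaemia cells labelled as overexpressing OGFOD1 (OE). The comparison used 4 of the 8 libraries of the study, chosen by their labels: the heavy and the light pool of the OE cells labelled Molm13, and the same pools of the OE cells labelled U937. The study addresses which RNAs are translated when OGFOD1 is overexpressed in this leukaemia. All cells in the comparison had, per the labels, received an OGFOD1 expression vector by lentivirus, and all lysates were made with cycloheximide, which holds ribosomes on the RNA. The light pool combined free ribonucleoprotein, monosome and disome fractions of the sucrose gradient. The heavy pool combined every fraction with 3 or more ribosomes. The other 4 libraries are the same pools of control cells, titled ctrl and with library names that carry Scr. These titles and names do not say what the control cells received. Both are established human lines: Molm13 carries a KMT2A fusion and an activated FLT3, and U937 resembles early monocytes.

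An mRNA that is translated by many ribosomes at once sediments deep in a sucrose gradient. An untranslated or weakly translated RNA stays near the top. The ratio of heavy to light pool describes how an RNA was split between the pools, relative to the other RNAs and to the scaling used. The number of ribosomes on an RNA was not measured, and the ratio is not a level of translation. Messenger RNAs that begin with a terminal oligopyrimidine tract (TOP), which include those of the ribosomal proteins and the elongation factors, are known to leave polysomes when mTOR signalling is low, through the binding of LARP1 to their cap and tract. RNAs made in mitochondria are translated there, on the organelle's own smaller ribosomes, and RNAs without a long reading frame stay mainly in the light fractions. OGFOD1 is a prolyl hydroxylase of the ribosomal protein RPS23, a part of the decoding centre of the small subunit.

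The 4 libraries held 25741930 (Molm13 heavy) to 74847383 (U937 heavy) counts, and 27392 to 32357 genes had a count. OGFOD1 did not bear out the genotype label: its level was 16.7 and 10.1 CPM (counts scaled to a common library size, here over all 8 libraries) in the OE light libraries labelled Molm13 and U937, against 33.0 and 49.8 CPM in the control light libraries, and 25.3 and 12.4 CPM against 44.4 and 60.2 CPM in the heavy ones. The groups are therefore called libraries labelled OE. The gene, on chromosome 16 from 56451490 to 56479100, overlaps NUDT21 and BBS2, and the kit does not mark the strand. The line labels were also not separated by the data: of 10987 genes with at least 10 CPM in any library, 0 differed 8-fold or more between the Molm13 and U937 labels in both OE pools, while 42 differed that much between the pools under both labels. In the same scaling, FLT3 stood at 149 and 93.6 CPM in the OE light libraries and at 170 and 202 CPM in the heavy ones. Marker lists were summed as CPM of each library's total count, without further scaling. Of 17 myeloid markers 14 reached 1 CPM in at least 1 of the 4 libraries, the exceptions being ANPEP, CSF2RA and CD14; of 11 erythroid and megakaryocyte markers none did. Of 11 T and NK cell markers CD3D, CD4, TRAC, NKG7 and GNLY reached 1 CPM. Their list summed to 225 and 238 CPM in the light libraries and to 686 and 754 CPM in the heavy ones, and the part of other cells in this was not tested. In bulk samples such as these, the level of a sum cannot tell a few cells of a type from little RNA in every cell. B cell markers summed to 2.05 to 7.73 CPM. Of 11 epithelial and stromal markers KRT8, KRT18, PDGFRB and PECAM1 reached 1 CPM, and the list summed to 122 and 76.6 CPM in the light libraries and to 122 and 133 CPM in the heavy ones; EPCAM, COL3A1 and CDH5 were at 0. The labels do not mention separate cultures of a line. The 2 line labels serve as replicates (n = 2 per pool), so a p-value reflects only the spread of these libraries, which may be technical. The fit had 1 residual degree of freedom against a prior of 43.6, so the spread used for each gene was mostly shared across genes. A small p-value therefore does not measure how closely the 2 labels matched for that gene. Members named below because they ran against their list were picked after their values were seen.

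Of 21597 genes tested with edgeR's quasi-likelihood test, with the line label as a block, 4264 (19.7%) were higher in the heavy pool and 3641 (16.9%) were lower at a Benjamini-Hochberg adjusted p under 0.05. The difference was at least 4-fold for 939 of the higher and 1204 of the lower genes. Of 13035 protein-coding genes 25.9% were higher and 14.4% lower, and the counts for lists of coding genes below stand against these shares. The median log2 fold change of all genes tested was -0.06, where a positive value means higher in the heavy pool. The heavy minus light difference had the same sign under both line labels for 78.6% of the genes, and across the 21597 genes the differences of the 2 labels correlated with a Pearson r of 0.723, a description in which genes are not independent replicates. The count of calls changed with the libraries in the fit. In a fit of all 8 libraries, 5109 genes passed, and 52 of the 240 named genes past the threshold lost their call. With 1 OE library left out of that fit, the lone library of its group being assumed to vary like the others, 4264 genes passed without the U937 light library, 1102 without the Molm13 heavy library, 332 without the Molm13 light library and 0 without the U937 heavy library (5494 at an unadjusted p under 0.05). Without the U937 heavy library, 238 of the 240 genes followed below as past the threshold kept their direction and none of the 240 its call. With upper-quartile scaling the median of all genes moved to -0.27, and 41.3% of the calls were for higher genes, against 53.9% with the main scaling.

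**Figure D1:**
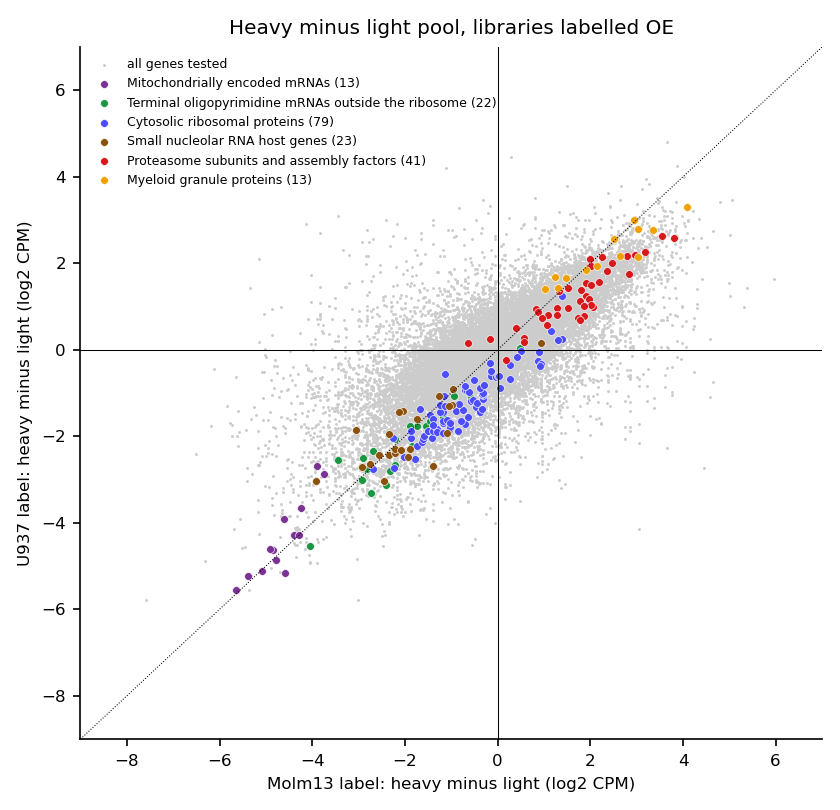
Heavy minus light difference in log2 CPM (prior count 2) under the Molm13 label (horizontal axis) and the U937 label (vertical axis), libraries labelled OE, for 21597 genes (grey) and the members of 6 gene lists (colours, with the number tested). The 13 mitochondrially encoded mRNAs lie at the lower left near the dotted line of equal difference, and the 13 myeloid granule genes and most proteasome genes at the upper right.

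Mitochondrially encoded RNA showed the deepest depletion from the heavy pools. It made up 19.8% and 20.5% of the counts in the Molm13 and U937 light libraries and 0.36% and 0.941% in the heavy ones. The large mitochondrial rRNA, MT-RNR2, alone took 12.8% and 11.2% of the light counts and 0.0622% and 0.243% of the heavy counts. All 13 mitochondrial mRNAs were depleted from the heavy pools; their median log2 fold change was -4.74 against -0.06 over all genes. MT-ND3, a subunit of complex I, stood at 1288 and 1806 CPM in the light libraries and at 25.5 and 38.5 CPM in the heavy ones. Both light values lay far above both heavy values, and its log2 fold change of -5.60 (SE 0.37, edgeR adjusted p = 4.92e-15) was the largest among coding genes named by the rule. MT-ATP6 (log2 fold change -5.32), MT-CO2 (-5.09) and MT-ATP8 (-4.88) followed; MT-ATP6 and MT-ATP8 overlap and share reads. The 2 smallest decreases were those of MT-CO1, the catalytic subunit of cytochrome oxidase, and MT-CYB, the cytochrome of complex III. MT-CO1 stood at 11222 and 14254 CPM in the light libraries and at 833 and 1939 CPM in the heavy ones (log2 fold change -3.31), and DESeq2 gave it an adjusted p of 0.0514. MT-CYB stood at 4554 and 6681 CPM against 305 and 1033 CPM (log2 fold change -3.30). For both genes the U937 heavy library held more than the Molm13 heavy one. Of 22 mitochondrial tRNA genes tested, 21 were lower and none higher, with a median of -3.18, and MT-TR missed the threshold (edgeR adjusted p = 0.071). The lowest were MT-TL1 (-4.39), MT-TV (-4.28) and MT-TG (-4.22). With all mitochondrially encoded genes left out before scaling, 8151 of the remaining genes passed the threshold, 7839 of which also passed with these genes kept in.

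Nuclear noncoding RNAs were also concentrated in the light pools. Of 23 small nucleolar RNA host genes tested, 22 were lower in the heavy pools and none higher, and the median was -2.16. SNHG17 (0.55, edgeR adjusted p = 0.167) did not pass. These genes make spliced RNAs with short or no reading frames, whose introns release the small nucleolar RNAs, and many are known to start with a pyrimidine tract. SNHG16 stood at 206 and 254 CPM in the light libraries and at 27.2 and 38.5 CPM in the heavy ones. The log2 fold change was -2.82 for SNHG16, -3.46 for SNHG4, -2.75 for DANCR, -2.70 for SNHG6 and -2.49 for SNHG29. Of 18 other nuclear and structural noncoding RNAs tested, 13 were lower and 1 was higher, with a median of -1.65. NORAD, a cytoplasmic decoy of the Pumilio proteins, stood at 333 and 307 CPM in the light libraries and at 22.1 and 50.5 CPM in the heavy ones, a log2 fold change of -3.25 (SE 0.34, edgeR adjusted p = 8.49e-10). NEAT1, the scaffold of paraspeckles (-3.05), OIP5-AS1 (-2.88), JPX (-2.44) and FTX (-2.23) were lower as well. The exception was MALAT1, a nuclear speckle RNA, the single member called higher. It stood at 1887 and 1006 CPM in the light libraries and at 6114 and 1069 CPM in the heavy ones. The Molm13 heavy library lay above the others and the U937 heavy library between the light ones, and the call (log2 fold change 0.89, adjusted p = 0.0395) was lost with median-of-ratios scaling (adjusted p = 0.0631) and without the line block (adjusted p = 0.115). Among noncoding genes of at least 10 CPM that overlap no other gene, the highest in the heavy pools were QKILA (log2 fold change 2.69), LINC02574 (2.50), LINC00571 (1.88), LINC01480 (0.97) and LINC02245 (0.94). By annotated type, 26.9% of 1039 long intergenic noncoding RNAs were lower and 4.62% higher, against 14.4% lower and 25.9% higher of 13035 protein-coding genes.

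The mRNAs of TOP genes outside the ribosome shifted towards the light pools nearly as a group: 21 of 22 were lower and none higher, and the median was -2.09. The exception, EIF3A, was at 0.27 (edgeR adjusted p = 0.514). The first 20 transcribed bases and the 10 bases before them are shown for 8 of the strongly depleted TOP and ribosomal protein genes whose RefSeq start carries the tract, and for RPS23, because the tract is the element that defines the class. Sequences are from RefSeq (GRCh38.p14), 5′ to 3′, and capitals mark the unbroken run of C and T from the start site on.
EEF1A1: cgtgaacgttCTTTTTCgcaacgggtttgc
IPO7: gcttctctttCCTTTCgcgccggttgccgc
EIF2S3: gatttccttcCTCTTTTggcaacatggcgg
EEF2: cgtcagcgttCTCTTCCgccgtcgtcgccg
RPL41: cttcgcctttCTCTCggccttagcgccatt
EIF4B: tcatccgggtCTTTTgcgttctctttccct
NAP1L1: gctcttgggtCTTTTTTagcgccatctgct
RPS27: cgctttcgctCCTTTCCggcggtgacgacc
RPS23: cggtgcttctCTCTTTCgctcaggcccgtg
The windows lie at chr6:73521013-73521042 (minus strand) for EEF1A1, chr19:3985444-3985473 (minus strand) for EEF2 and chr5:82278335-82278364 (minus strand) for RPS23.

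PABPC1, the main cytoplasmic poly(A)-binding protein, had the largest difference of the TOP list. It stood at 7990 and 12135 CPM in the light libraries and at 484 and 521 CPM in the heavy ones, so that both heavy values lay more than 10-fold below both light values, a log2 fold change of -4.29 (SE 0.37, edgeR adjusted p = 3.13e-12). Its relative PABPC4 stood at 301 and 365 CPM against 30.4 and 25.4 CPM (log2 fold change -3.58). EEF1A1, which brings aminoacyl-tRNA to the ribosome, was at 14550 and 20022 CPM in the light libraries and at 2206 and 2032 CPM in the heavy ones. Its log2 fold change was -3.01 (SE 0.35), with an adjusted p of 7.26e-09 by edgeR and of 0.0764 by DESeq2. EIF2S3, a subunit of the initiator tRNA carrier eIF2, was at -2.97, and the nuclear import receptors IPO7 and IPO5 were at -3.00 and -2.78.

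Cytosolic ribosomal protein mRNAs were lower as well, though by less and less uniformly. Of 79 tested, 53 were lower and 3 higher, with a median of -1.10 (-0.80 under the Molm13 label and -1.36 under the U937 label). RPL41, the shortest ribosomal protein, stood at 558 and 682 CPM in the light libraries and at 86.4 and 101 CPM in the heavy ones (log2 fold change -2.72, SE 0.32, edgeR adjusted p = 6.47e-09). RPS27 (-2.48), RPS20 (-2.25), RPS28 (-2.15) and RPS2 (-2.15) followed; DESeq2 gave RPS2 an adjusted p of 0.0997. RPS23, the substrate of OGFOD1, stood at 2087 and 3301 CPM in the light libraries and at 1160 and 905 CPM in the heavy ones. Its log2 fold change was -1.36 (SE 0.33, edgeR adjusted p = 0.000966), and -1.25 in the fit of all 8 libraries (adjusted p = 0.0848). The 3 exceptions were RPS26, RPL27 and RPL38. RPS26 stood at 184 and 209 CPM in the light libraries and at 485 and 497 CPM in the heavy ones (log2 fold change 1.32, edgeR adjusted p = 0.000503). The calls of RPL27 (0.82, adjusted p = 0.039) and RPL38 (0.80, adjusted p = 0.0378) were lost with median-of-ratios scaling (adjusted p = 0.0512 and 0.0557) and without the line block (0.0664 and 0.0607). Ribosomal protein genes have many near-identical pseudogene copies, so their counts depend on how shared reads were assigned.

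The RefSeq starts of these exceptions are shown in the same form. The depleted genes above were picked among those that carry the tract, so the sequences do not show how often it occurs in either set.
RPS26: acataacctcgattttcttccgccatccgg
RPL27: gtgaaaggttagcggaagtgtccttctttc
RPL38: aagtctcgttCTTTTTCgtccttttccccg
RPL38 carried a run of 7 pyrimidines from its start, like RPS23, while RPS26 and RPL27 had 0 at the annotated start. Of 78 listed genes with a RefSeq start, 54 carried a tract of C followed by at least 4 bases that are C or T. Their median log2 fold change was -1.35, and 72.2% were lower. The 24 without the tract had a median of -1.09, and 66.7% were lower.

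Over all 10256 tested coding genes with a RefSeq start, the 568 with this tract, read on the transcribed strand from the start base, had a median of -0.34 and the 9688 others 0.17 (0.165). Of the tract genes 31.9% were lower and 11.8% higher, against 13.8% and 26.5% of the others. With the listed genes left out, the 514 tract genes had a median of -0.25 and 27.6% were lower. The tract occurred in 844 (4.44%) of 19011 RefSeq starts matched to a gene. A match describes these letters at the annotated start and not a measured cap site.

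**Figure D2:**
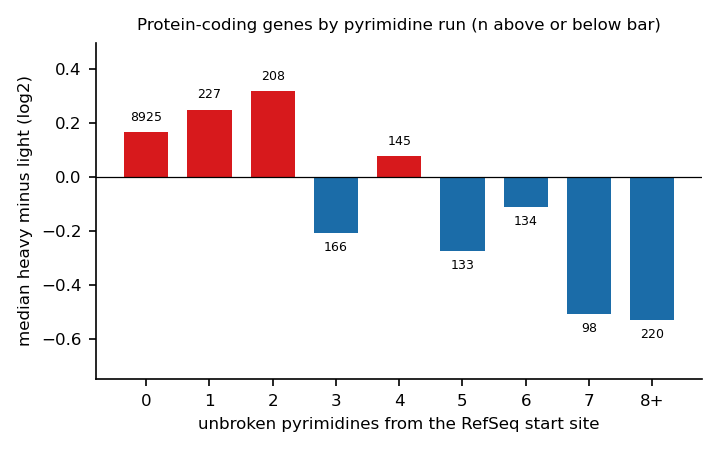
Median heavy minus light log2 fold change (vertical axis, bars from 0) of tested coding genes by the number of unbroken pyrimidines from the RefSeq start site (horizontal axis); the number at each bar is the number of genes. The 98 genes with 7 pyrimidines had a median of -0.51 and the 220 with 8 or more -0.53, against 0.17 (0.168) for the 8925 genes whose start is a purine.

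Most other parts of the translation machinery did not follow the ribosomal proteins. Of 38 initiation and termination factors, 16 were higher and 3 lower, and the median was 0.51. EIF3B, a core subunit of the scaffold eIF3, stood at 44.0 and 38.5 CPM in the light libraries and at 181 and 176 CPM in the heavy ones (log2 fold change 2.12, SE 0.31, edgeR adjusted p = 4.9e-07). EIF6, which keeps the ribosomal subunits from joining, rose by 2.34, EIF2B1 by 1.91 and PAIP2 by 1.88. EIF4EBP2, a repressor of the cap-binding protein eIF4E, went the other way, from 163 and 245 CPM to 28.6 and 32.5 CPM (log2 fold change -2.72), and the other two lower genes were the release factor GSPT1 (-1.43) and EIF3D (-0.88).

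Ribosome biogenesis factors were higher for 26 of 52 and lower for 2, with a median of 0.72. EBNA1BP2, a large-subunit assembly factor, stood at 22.71 and 21.03 CPM in the light libraries and at 232 and 126 CPM in the heavy ones (log2 fold change 2.97). GRWD1, NOC2L, RRP1 and NOP16 followed with 2.48, 2.36, 2.20 and 2.08, and UTP14A (-1.26) and WDR75 (-1.03) were lower. Aminoacyl-tRNA synthetases were split, with 3 of 20 higher, 2 lower and a median of 0.11 that turned to -0.10 (-0.0987) with upper-quartile scaling. QARS1, the glutamine enzyme, stood at 363 and 584 CPM against 77.4 and 92.7 CPM (log2 fold change -2.44), and EPRS1 at -1.33, whereas FARSA was at 1.67, YARS1 at 1.45 and NARS1 at 0.81.

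Stress mRNAs whose main reading frame lies behind upstream reading frames were lower for 7 of 17 and higher for none. AMD1, an enzyme of polyamine synthesis, stood at 151 and 205 CPM in the light libraries and at 20.7 and 41.7 CPM in the heavy ones (log2 fold change -2.58, SE 0.32, edgeR adjusted p = 1.85e-08). ATF4, the transcription factor of the integrated stress response, stood at 721 and 847 CPM against 182 and 202 CPM (log2 fold change -2.03). PPP1R15B (-1.64), EPRS1 (-1.33) and ODC1 (-1.28) were lower too. The list median of -0.37 ranged from -0.62 without the U937 heavy library to 0.23 without the U937 light library.

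Nuclear-encoded mitochondrial proteins showed the reverse of the mitochondrially encoded mRNAs. Of 76 nuclear subunits of oxidative phosphorylation, 54 were higher and 3 lower, and the median was 1.41. NDUFC2, a subunit of complex I, stood at 74.2 and 48.6 CPM in the light libraries and at 532 and 370 CPM in the heavy ones (log2 fold change 2.88, SE 0.32, edgeR adjusted p = 1.79e-09). NDUFB6 and the ATP synthase subunit ATP5MC1 each rose by 2.73, ATP5MC3 by 2.69 and NDUFA4 by 2.62. The 3 lower genes were UQCR11 (-2.18), ATP5F1E (-0.98) and NDUFC1 (-0.88). UQCR11, a small subunit of complex III, stood at 1353 and 1232 CPM in the light libraries and at 248 and 329 CPM in the heavy ones, so that the groups were far apart. Mitochondrial ribosomal proteins were higher for 55 of 77, with a median of 1.35. MRPL28 stood at 38.3 and 36.2 CPM against 341 and 162 CPM (log2 fold change 2.66), and MRPL55, MRPS12, MRPL27 and MRPL16 followed with 2.57, 2.53, 2.42 and 2.35. Only MRPS27 was lower (-1.94), from 244 and 366 CPM to 68.1 and 89.9 CPM.

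Proteasome genes were mostly on the heavy side: 35 of 41 were higher and 0 lower, with a median of 1.48. PSMB3, a subunit of the catalytic core, stood at 48.4 and 53.2 CPM in the light libraries and at 681 and 318 CPM in the heavy ones (log2 fold change 3.20, SE 0.34, edgeR adjusted p = 1.09e-09). PSMB6 rose by 3.09, the activator subunit PSME2 by 2.73, PSMB2 by 2.58 and the immunoproteasome subunit PSMB9 by 2.47. Cytosolic chaperones were divided, with 12 of 28 higher and 4 lower, the lower share being near that of all protein-coding genes (14.4%). The prefoldin subunit PFDN6, which hands nascent actin and tubulin to the chaperonin, stood at 10.9 and 10.0 CPM against 128 and 56.4 CPM (log2 fold change 3.03), and PFDN2 was at 1.90. The heat shock proteins HSPA8 (-1.52), HSPH1 (-1.28) and HSP90AB1 (-1.10) and the chaperonin subunit CCT8 (-1.14) were lower. These 4 calls were lost in the fit of all 8 libraries (edgeR adjusted p = 0.0502, 0.0503, 0.136 and 0.101, in the same order). Against these genes, the small heat shock protein HSPB1 was higher, at 1.32.

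Transcripts of the myeloid secretory and phagocyte programme were strongly enriched in the heavy pools. All 13 granule protein genes were higher, with a median of 2.41, under both line labels (2.51 for Molm13 and 2.16 for U937). PRG2, the eosinophil major basic protein, stood at 95.1 and 67.5 CPM in the light libraries and at 1609 and 667 CPM in the heavy ones (log2 fold change 3.69, SE 0.34, edgeR adjusted p = 3.46e-11). The serine proteases ELANE (3.06), PRTN3 (2.91) and CTSG (2.59) and their inactive relative AZU1 (2.41) rose with it. PRTN3, proteinase 3, reached 15201 and 6148 CPM in the heavy libraries from 1866 and 887 CPM in the light ones. The calprotectin genes S100A9 (3.03) and S100A8 (2.55) were at low levels, with at most 4.67 CPM in the light libraries. CST3 rose by 2.04, RNASE3 by 1.89, RNASE2 by 1.57, SRGN by 1.46, LYZ by 1.37 and MPO by 1.22; the adjusted p of MPO was 0.00248, and 0.0628 without the line block.

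CYBA, the membrane subunit shared by the NADPH oxidases, had the largest difference of all coding genes named by the rule on the heavy side. It stood at 108 and 115 CPM in the light libraries and at 2978 and 1216 CPM in the heavy ones (log2 fold change 4.10, SE 0.37, edgeR adjusted p = 1.71e-11). The cytosolic subunits NCF1 (2.04), NCF4 (1.64) and RAC2 (1.61) were also higher. CYBB, which pairs with CYBA in the membrane, stood at 2.36 and 4.18 CPM against 1.36 and 5.32 CPM; the pools overlapped and no difference was called. Of 38 lysosome and V-ATPase genes, 28 were higher and 1, the pump subunit ATP6V1A (-1.15), was lower, with a median of 1.26. GRN, the precursor of the granulins, stood at 129 and 86.5 CPM in the light libraries and at 1040 and 606 CPM in the heavy ones (log2 fold change 2.91). The cathepsin CTSL was at 2.63, PSAP at 2.19 and ATP6V0E1 at 2.00. Of 15 myeloid markers tested, 7 were higher and 0 lower, among them the transcription factor SPI1 (1.81) and CD68 (1.52). FLT3 (0.55, adjusted p = 0.157) and CD33 (0.30, adjusted p = 0.445) did not pass. The T and NK cell genes NKG7 (2.30), CD3D (2.15), GNLY (2.55) and CD4 (1.02) were higher too, and TRAC was at 0.21 (adjusted p = 0.606).

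The machinery of the endoplasmic reticulum followed in the same direction. Of 39 genes for translocation, membrane insertion and glycosylation 21 were higher and 4 lower, with a median of 0.91, and of 23 genes of the unfolded protein response 14 were higher and 1 lower, with a median of 1.16. DAD1, a subunit of the oligosaccharyltransferase, stood at 126 and 109 CPM in the light libraries and at 825 and 531 CPM in the heavy ones (log2 fold change 2.50). EMC4 rose by 2.16, SPCS2 by 2.13 and SRP14 by 2.06, while OST4 (-1.97), a small subunit of the same transferase, MMGT1 (-2.11), STT3B (-0.93) and SRP72 (-0.83) were lower. CALR, a calcium-binding chaperone, stood at 121 and 123 CPM against 402 and 404 CPM, with almost equal values under both labels (log2 fold change 1.72, SE 0.30, edgeR adjusted p = 1.44e-05). XBP1 (1.94), DNAJB11 (1.83), PDIA6 (1.80) and HSP90B1 (1.71) were higher, and the lectin chaperone CANX was lower (-0.87), a call lost without the line block (adjusted p = 0.0679).

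**Figure D3:**
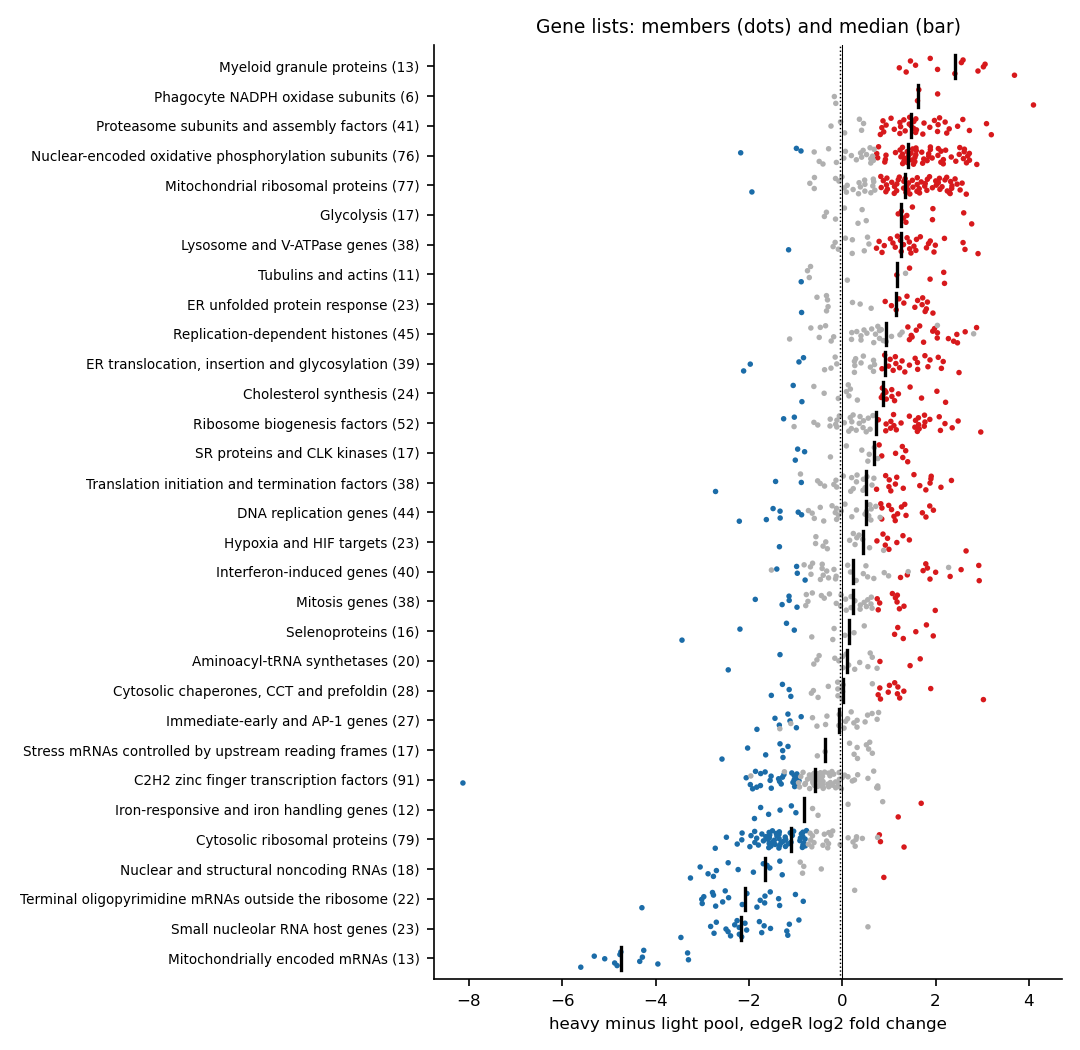
Heavy minus light log2 fold change from edgeR (horizontal axis) for the members (dots) of 31 gene lists, ordered by median (black bar), with the number tested in brackets; red members were higher and blue members lower at an adjusted p under 0.05, grey members did not pass, and the dotted line is the median of all genes, -0.06. The isolated point at the left is ZNF426, which had no count in either heavy library and at most 0.755 CPM in the light ones, so its position is no measured fold.

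Genes of energy and lipid metabolism were mostly on the heavy side. Of 17 glycolysis genes 10 were higher and 0 lower, with a median of 1.27. TPI1, triosephosphate isomerase, stood at 532 and 492 CPM in the light libraries and at 4828 and 2539 CPM in the heavy ones (log2 fold change 2.77, SE 0.34, edgeR adjusted p = 1.74e-08). The lactate exporter SLC16A3 was at 2.60, ALDOC at 1.94, PGAM1 at 1.93 and PGK1 at 1.38. Of 24 cholesterol synthesis genes 14 were higher and 2 lower. The isomerase EBP rose by 2.22, PMVK by 2.03, FDPS by 1.70, TM7SF2 by 1.45 and NSDHL by 1.20, whereas STARD4, a sterol carrier, was lower (-0.86).

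Of 23 hypoxia genes 9 were higher and 1 lower, with a median of 0.44. CA9, a carbonic anhydrase, stood at 5.38 and 9.28 CPM in the light libraries and at 38.5 and 51.6 CPM in the heavy ones (log2 fold change 2.65, edgeR adjusted p = 2.95e-08). The fit of all 8 libraries gave CA9 the same fold change with an edgeR adjusted p of 0.1. With the U937 heavy library left out of that fit, CA9 was at -0.06. The Molm13 pair that stayed in stood at 5.38 and 38.5 CPM, and that fit's line effect was shared with the control libraries. DDIT4 was at 1.44, ADM at 1.30 and SLC2A1 at 1.17, while PDK1, the kinase that turns off pyruvate dehydrogenase, was at -1.35. The calls of DDIT4 and ADM were also lost in the fit of all 8 libraries (edgeR adjusted p = 0.0733 and 0.258).

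Iron and selenium genes moved apart within their groups. Of 12 iron genes 6 were lower and 2 higher, with a median of -0.81 (-0.815). The ferritin chains FTL and FTH1, whose translation is held back by iron regulatory proteins, were at -1.88 and -1.75. FTH1 stood at 1985 and 3551 CPM in the light libraries and at 835 and 747 CPM in the heavy ones. NCOA4, the receptor for ferritin degradation, was at -1.58, IREB2 at -1.33, ISCU at -1.09 and the transferrin receptor TFRC at -0.99. The calls of FTL, ISCU and TFRC were lost in the fit of all 8 libraries (edgeR adjusted p = 0.0526, 0.0673 and 0.171). HMOX1 (1.69) was higher, a call lost in the fit of all 8 libraries (edgeR adjusted p = 0.178). With the U937 heavy library left out of that fit, whose line effect is shared with the controls, HMOX1 was at -0.54. FBXL5 (-0.64), SLC11A2 (-0.52), ACO1 (0.13) and STEAP3 (0.87) did not pass, and ACO1 was at -0.09 (-0.0855) with upper-quartile scaling.

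SELENOW, a small selenoprotein, was among the 15 most depleted coding genes that passed the threshold, averaged 10 CPM or more and moved one way under both labels. It stood at 143 and 164 CPM in the light libraries and at 15.3 and 13.2 CPM in the heavy ones (log2 fold change -3.43, SE 0.33, edgeR adjusted p = 7.34e-11). GPX4, the lipid peroxidase, stood at 525 and 611 CPM against 115 and 134 CPM (log2 fold change -2.19), and GPX1 (-1.03) and SELENOI (-1.20) were lower with it. The call of GPX1 was lost without the line block (adjusted p = 0.0515). In the other direction SELENOS (1.95) and SELENOK (1.80), proteins of the endoplasmic reticulum, and TXNRD2 (1.58) were higher. In all, 6 of 16 selenoprotein genes were higher and 4 lower.

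Among cell cycle genes, replication-dependent histones were higher for 17 of 45 and lower for none, with a median of 0.94 (0.943) against 0.39 with a GC offset in the fit. H1-2, a linker histone, stood at 11.6 and 16.9 CPM in the light libraries and at 87.5 and 69.0 CPM in the heavy ones (log2 fold change 2.47, SE 0.33, edgeR adjusted p = 1e-07). H2AC14 (2.88), H2AC20 (2.64), H3C2 (2.46) and H1-4 (2.28) were higher at levels of at most 4.59 CPM in the light libraries. Of 44 replication genes 15 were higher and 7 lower. The sliding clamp PCNA stood at 96.1 and 74.1 CPM against 316 and 271 CPM (log2 fold change 1.79), and FEN1 (1.95), RFC2 (1.88) and GINS2 (1.72) were higher as well. ORC1, the largest subunit of the origin recognition complex, went from 32.8 and 49.8 CPM to 8.50 and 9.06 CPM (log2 fold change -2.21). Of 38 mitosis genes 10 were higher and 5 lower, near the shares of all protein-coding genes (25.9% higher and 14.4% lower). The securin PTTG1 was at 1.99, UBE2C at 1.32, BIRC5 at 1.18 and MAD2L1 at 1.17, and the spindle checkpoint kinase TTK was at -1.86. ECT2 (-1.29), ASPM (-1.14), ANLN (-1.14) and HMMR (-0.97) were also lower. With the GC offset these 4 calls were lost (edgeR adjusted p = 0.0556, 0.132, 0.103 and 0.369), and those of ASPM, ANLN and HMMR were also lost in the 8-library fit (0.0541, 0.0561 and 0.115).

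Regulatory genes differed by group. Of 91 C2H2 zinc finger genes tested, 26 were lower and 0 higher, with a median of -0.58, and of -0.28 with a GC offset in the fit. ZNF121 stood at 87.6 and 93.5 CPM in the light libraries and at 18.3 and 31.0 CPM in the heavy ones (log2 fold change -1.92). ZNF431 (-2.06), ZNF714 (-1.97), ZNF260 (-1.75) and ZNF224 (-1.55) were lower too. Of 27 immediate-early and AP-1 genes 7 were lower and 0 higher, with a median of -0.07 (-0.0723). JUN, a subunit of AP-1, was at -1.83, IER3 at -1.44, EGR1 at -1.35, BTG2 at -1.16 and JUND at -1.12. The calls of JUN, IER3, BTG2 and JUND were lost in the fit of all 8 libraries (edgeR adjusted p = 0.0653, 0.0711, 0.0853 and 0.0946), and EGR1 kept its call there. SR proteins and their CLK kinases had 7 of 17 higher and 3 lower, and a median of 0.69. The higher genes included SON (1.403), CLK3 (1.36), SRSF2 (1.30), SRSF7 (1.29) and SRSF3 (1.14). CLK1 (-1.01), SRSF6 (-0.96) and CLK4 (-0.81) were lower, and these calls were lost with the GC offset (edgeR adjusted p = 0.131, 0.149 and 0.469). Interferon-induced genes had 11 of 40 higher and 4 lower, not far from the shares of all protein-coding genes (25.9% higher and 14.4% lower). ISG15, a ubiquitin-like modifier, stood at 22.2 and 20.3 CPM against 153 and 101 CPM (log2 fold change 2.55), and IFI6 (2.94), IFI27 (2.93), BST2 (2.31) and IFI35 (2.00) were higher, while DDX60 (-1.40), XAF1 (-0.98) and EIF2AK2 (-0.96) were lower. The call of DDX60 (adjusted p = 0.0493) was lost with DESeq2 (0.162), limma voom (0.0532), the GC offset (0.179), no filter (0.0551), no line block (0.0547) and all 8 libraries in the fit (0.136). Those of XAF1 and EIF2AK2 were lost in the 8-library fit (0.093 and 0.0888), and that of EIF2AK2 also with the GC offset (0.196). Of 11 tubulin and actin genes 5 were higher and 1 lower, with a median of 1.17, and of 0.66 with the GC offset. ACTB, the beta-actin gene, stood at 2719 and 2303 CPM against 11643 and 7316 CPM (log2 fold change 1.88). TUBA4A was at 2.19 and TUBG1 at 2.18, and TUBB, the main beta-tubulin, was at -0.88. TUBA1B (-0.71), TUBA1C (-0.68) and ACTG1 (-0.74) did not pass in edgeR (adjusted p = 0.0657, 0.0658 and 0.0635) and passed with limma voom (0.0369, 0.0423 and 0.036).

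**Figure D4:**
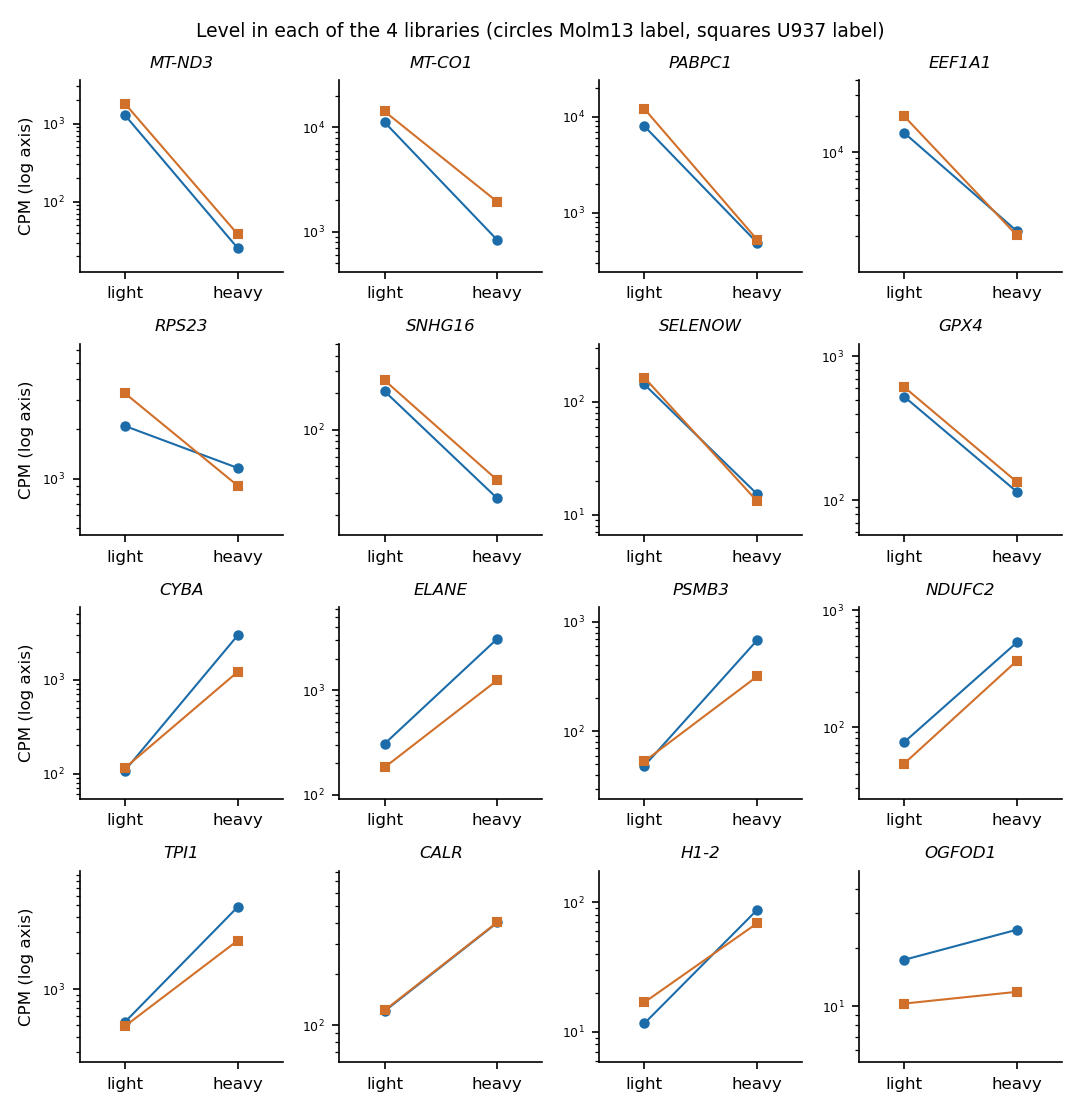
CPM (log axes, a separate range for each gene) of 16 genes in the light and heavy libraries labelled OE; circles and squares joined by lines are the Molm13 and U937 labels, 1 library each. MT-ND3, MT-CO1, PABPC1, EEF1A1, RPS23, SNHG16, SELENOW and GPX4 were lower in the heavy libraries, CYBA, ELANE, PSMB3, NDUFC2, TPI1, CALR and H1-2 were higher, and OGFOD1 did not differ beyond the threshold.

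The remaining coding genes of largest difference, at a mean of at least 10 CPM, came from varied pathways. On the heavy side they were CFD, the complement factor D protease (3.40), EXOSC5, an exosome subunit (3.35), NUDC, a dynein cofactor (3.31), LRPAP1, a chaperone of lipoprotein receptors (3.23), S100A4 (3.21), the myosin light chain MYL6 (3.19), the electron transfer flavoprotein ETFB (3.18), the centromere protein CENPW (3.17) and ECH1, an enzyme of fatty acid oxidation (3.17). CFD stood at 222 and 186 CPM in the light libraries and at 2657 and 1742 CPM in the heavy ones (SE 0.34, edgeR adjusted p = 1.74e-10). SNX32 (3.68) overlaps CFL1, and NDUFC2-KCTD14 (3.18) is a readthrough of NDUFC2, so their reads cannot be told from those of their partners. The annotated spans of EXOSC5, NUDC, S100A4, MYL6, ETFB, ECH1 and ATMIN also overlap other genes, and the part of shared reads in their counts was not tested. On the light side was ATMIN, a transcription factor, which stood at 58.2 and 102 CPM against 6.23 and 7.52 CPM (log2 fold change -3.50, SE 0.34, edgeR adjusted p = 1.05e-10). OGFOD1 itself, in the scaling of the 4 libraries, stood at 17.3 and 10.3 CPM in the light libraries and at 24.7 and 11.9 CPM in the heavy ones. The 2 pools overlapped, and the log2 fold change of 0.36 (SE 0.32, edgeR adjusted p = 0.41) did not pass.

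The heavy minus light difference moved with the length and base composition of the transcript. Among 13022 nuclear coding genes, the median log2 fold change was 0.55 for reading frames of over 100 and up to 200 residues (1580 genes) and -0.14 (-0.145) for those of over 800 and up to 1600 residues (2070 genes). By 3′ untranslated length, the median was 0.50 at up to 200 bases and -0.38 (-0.385) above 4000 bases. By transcript GC content, it was -0.51 at up to 40% and 0.72 above 60%, where 41.6% of 2252 genes were higher and 5.64% lower. Spearman correlations across genes, which share the same 4 libraries and are a description, were -0.20 for coding length, -0.27 for 3′ untranslated length, -0.31 for transcript length and 0.38 for GC content. The long classes differed between labels: reading frames over 1600 residues had a median of -0.34 (-0.335) under Molm13 and 0.18 under U937. With a GC offset in the fit, 6804 genes passed, of which 5533 had passed without it. The offset moved some list medians little: TOP genes were then at -1.89, the proteasome at 1.43 and the granule proteins at 2.17. Others moved by over 1.5 times towards 0: histones from 0.94 (0.943) to 0.39, C2H2 zinc finger genes from -0.58 to -0.28, iron genes from -0.81 (-0.815) to -0.43, cholesterol synthesis from 0.87 to 0.51, glycolysis from 1.27 to 0.76, tubulins and actins from 1.17 to 0.66, and myeloid markers from 0.70 to 0.43. Of the named genes past the threshold, 24 lost their call with the offset, among them ATP5F1E, CANX, HSPB1, SELENOI, SRP72, STARD4, STT3B, TFRC, TUBB6 and WDR75.

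**Figure D5:**
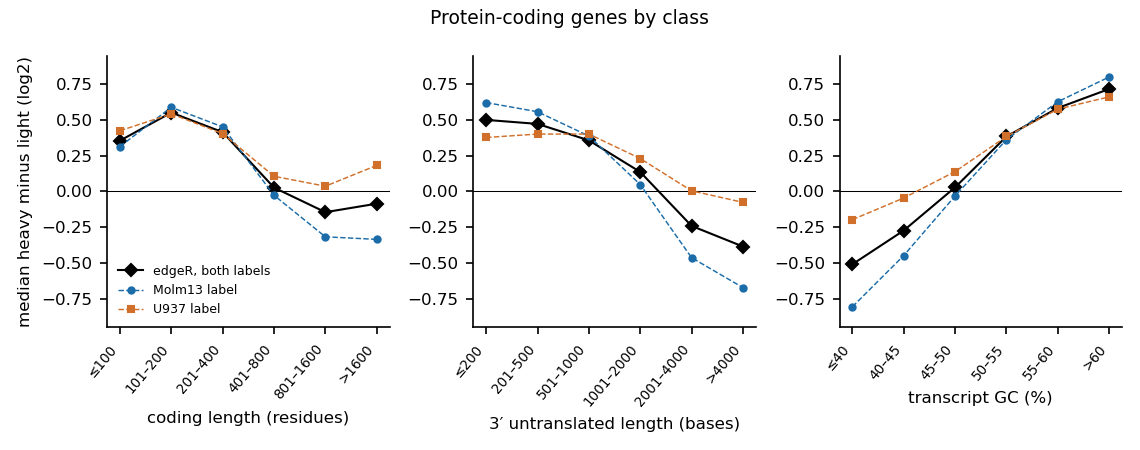
Median heavy minus light log2 difference (vertical axis) of protein-coding genes in classes of coding length, 3′ untranslated length and transcript GC content (horizontal axes) from edgeR (black diamonds) and under the Molm13 (circles) and U937 (squares) labels. The median was highest, 0.55, at over 100 and up to 200 residues, declined with 3′ untranslated length from 0.50 to -0.38 (-0.385) and rose with GC content from -0.51 to 0.72; the range over GC classes was wider under the Molm13 label.

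The same difference was measured in the control libraries. In the fit of all 8 libraries, no gene of 24289 (0%) had a heavy minus light difference that differed between the OE and control labels by edgeR (smallest adjusted p = 0.791, and 1431 genes with an unadjusted p under 0.05); DESeq2 called 8 and limma voom 0. Among the controls a library stood apart: the Molm13 control light library held 2.49% mitochondrial counts, against 19.8% to 23.3% in the other 3 light libraries and 0.36% to 0.941% in the heavy ones. Without that library the count was again 0 (896 at an unadjusted p under 0.05). Without the U937 control light library, which leaves it as the only control light pool, 1371 genes were called. Side by side in that fit, the median log2 difference of the 13 mitochondrial mRNAs was -4.66 in the libraries labelled OE and -3.08 in the controls, that of the TOP genes outside the ribosome -2.0 and -0.82 (-0.815), and that of the cytosolic ribosomal proteins -1.0 and -0.14 (-0.136). The granule proteins had medians of 2.51 and 1.04, the lysosome genes 1.36 and 0.10, the proteasome 1.57 and 1.10, and the hypoxia genes 0.55 and -0.23. Other lists had medians that were similar or farther from 0 in the controls: initiation factors 0.58 and 0.56, DNA replication 0.59 and 0.61 (0.615), ribosome biogenesis 0.83 and 0.92, mitosis 0.33 (0.325) and 0.57, synthetases 0.19 and 0.60, chaperones 0.10 and 0.71, and nuclear noncoding RNAs -1.49 and -1.58. In none of these lists did a member's difference between the labels pass the threshold, and the part of the Molm13 control light library in the list medians was not tested.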

How the data were processed

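The authors deposited 1 table of raw read counts per gene (78932 Ensembl IDs, 8 libraries). The submitters' processing notes name the trimmer cutadapt, the aligner STAR, the counter featureCounts and the build GRCh38; the sources used here give no annotation release or strand setting. TALAM1 held 99.95% to 99.97% as many counts as its antisense partner MALAT1, so overlapping genes share reads. Symbols were found for 42179 IDs; types, positions, coding length, untranslated length and GC come from GENCODE 29, since no protein table was given, and start sites from RefSeq (GRCh38.p14).

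The 4 libraries labelled OE were fitted with edgeR 4.0.16 (R 4.3.3): TMM scaling, filterByExpr, pool plus line label, quasi-likelihood F test, Benjamini-Hochberg adjustment, threshold 0.05. There was 1 residual degree of freedom, a prior of 43.6 degrees of freedom and a biological coefficient of variation of 0.264. Pairing comes from the labels (light and heavy pool of a line); deviations from pool means correlated at 0.154 within a label across genes. CPM were computed here with TMM scaling, and per-label differences use log2 CPM with a prior count of 2. Standard errors (SE) derive from the F statistic. The difference between OE and control labels was an interaction contrast over 8 libraries (3 residual degrees of freedom). In simulated counts for this comparison (20842 genes), 21% of 100 genes changed 2-fold and 79% of 100 changed 4-fold were recovered, with 0 unchanged genes called. Far fewer genes were changed there than passed in the data, and no line effect was put in.

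Named were OGFOD1, RPS23, the 15 coding and 5 other genes of largest difference per direction past the threshold (mean of at least 10 CPM, same direction under both labels), and up to 5 members per list by smallest p (all for lists of 15 or fewer). Members and lists were chosen with earlier results of these data known. Alternatives were DESeq2 1.42.0, limma 3.58.1 (voom), other scaling, no filter on low counts, no block, 8 libraries and each library left out; the GC offset and the TOP comparison without listed genes were chosen after seeing the data. No columns were left unmapped. A few members of the lists are not reported here by name.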

Additional observations from a re-analysis of the deposited data

Results flagged for a closer look

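Medians of 3 gene lists with more than 1 member tested pointed in opposite directions under the 2 line labels. There was 1 library per pool and label, and the difference between labels was not tested. The erythroid and megakaryocyte list, with 1 gene tested, was at -1.49 under Molm13 and 1.11 under U937. Over all genes tested, the medians were -0.06 (-0.0639) under Molm13 and 0.01 (0.00888) under U937. Cytosolic chaperones had a median heavy minus light difference of 0.36 (0.358) under the Molm13 label and -0.03 (-0.0251) under U937. Immediate-early and AP-1 genes had 0.01 (0.00889) and -0.15 (-0.155). Selenoproteins had -0.14 (-0.143) and 0.64 (0.642).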

How the results depend on the processing

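The line label pairs the libraries; with no replicate block 6807 genes passed, against 7905 with it, and 6765 were shared. Besides MALAT1, RPL27, RPL38, GPX1, MPO and CANX, the fit without the pairing lost the calls of ANLN, CD79B, CLK4, DDX60 and STT3B. The count was 5109 in the fit of all 8 libraries, and leaving out each library labelled OE in turn gave 0 to 4264; it was 7537 without the Molm13 control light library. It was 6618 with DESeq2, 8384 with limma voom, 8077 with median-of-ratios factors, 8460 with upper-quartile factors, 8151 with mitochondrially encoded genes left out, 7094 without the filter and 6804 with the GC offset. For the difference between OE and control labels the count was 8 with DESeq2 and 0 to 1371 when each library was left out, and 0 in the other fits. Of 240 named genes past the threshold, 180 kept their direction and call in every fit that kept all libraries. With single libraries left out, CA9 ranged from -0.0571 to 5.64 and HMOX1 from -0.54 to 4.08 on the log2 scale. Both were negative without the U937 heavy library. Those fits kept the control libraries and 1 line effect shared by OE and control libraries. Their values are therefore not the difference within the OE pair that stayed in, and the part of the shared line effect was not tested. The tract difference in median was -0.50 (-0.503), -0.56 (-0.555) with at least 6 pyrimidines and -0.41 (-0.412) with the listed genes left out, where the strongest members are removed. The length difference was 0.65, and 0.79 among genes of at least 10 CPM. Medians of 7 of 37 lists changed sign in some fit: upstream reading frame genes, chaperones, synthetases, hypoxia, immediate-early genes, selenoproteins and erythroid markers. With 2 libraries per pool, most 2-fold changes in simulated counts were not called. Those counts held 100 genes changed 2-fold and 100 changed 4-fold, without a line effect, while 7905 genes passed in the data. The adjusted p depends on the share of changed genes, so the simulated recovery does not carry over to this comparison.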
